A study of Mus musculus with 16 samples.

Results

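The potassium channel genes were taken as all array probe sets whose single platform gene symbol begins with Kcn followed by a lowercase letter and a further letter or digit. The rule used the symbol alone and found 132 probe sets of 71 genes, among 37112 tested probe sets and 16206 genes in all. It took in the pore-forming subunits and the auxiliary subunits, and also 6 probe sets of noncoding transcripts named after channel loci. A probe set is a group of short probes that report 1 transcript or transcript end. Of the 71 genes, 32 had 1 probe set and 39 had several, at most 4.

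The RNA came from tagged polysomes of dopamine D1 receptor medium spiny neurons, a class of striatal projection neuron, pulled down from dissected striatum of C57BL6/J mice aged 3 months. The mice of the 9 deletion arrays carried the D1-neuron ribosome tag and a homozygous deletion of miR-128-2 specific to D1 neurons. The 7 control arrays came from age-matched littermates with the ribosome tag and no deletion. The driver of the deletion is not given in the sources used here, and the labels name no change at miR-128-1, the second locus of the same miRNA. Repeat 1 of the experiment held 4 deletion and 4 control arrays, and repeat 2 held 5 deletion and 3 control arrays. The titles call the replicates biological, and the labels do not say whether tissue of several mice was pooled for an array. In such pulldowns, fewer cells of a type and less RNA per cell cannot be told apart. The deposited log2 values were centred on each probe set's median over the 16 arrays. They therefore carry differences between mice and no level, so no 2 genes are compared in level below, and a probe set that varies little cannot be told from one at the detection floor.

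Potassium channels let potassium leave or enter a neuron along its gradient and so set the resting potential, the threshold and the shape and spacing of spikes. In striatal projection neurons the inward rectifiers of the Kir2 group are known to hold the cell at its hyperpolarised resting state. The A-type Kv4 channels and the Kv1 channels delay the first spike, KCNQ channels damp repeated firing, and the calcium-activated BK and SK channels repolarise the cell after a spike. A miRNA lowers the output of transcripts that pair with its seed, bases 2 to 8 of the mature strand. miR-128 is abundant in brain and is known from mouse striatum to restrain neuronal excitability.

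The sequences of the deleted hairpin, of the second locus and of the mature strand are shown because they define what the deletion mice lacked and what the second locus still encodes. They are RefSeq's, on GRCm38.p6. In the hairpins the capitals mark the mature miR-128-3p strand, and in the mature strand they mark the seed. The deleted hairpin lies at chr9:112118636-112118711 on the minus strand and the second at chr1:128202361-128202430 on the plus strand. The mature strand was identical in both, and a transcript would pair with its seed through CACUGUG.
Mir128-2 hairpin: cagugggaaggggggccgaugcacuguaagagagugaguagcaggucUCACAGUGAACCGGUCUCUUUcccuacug
Mir128-1 hairpin: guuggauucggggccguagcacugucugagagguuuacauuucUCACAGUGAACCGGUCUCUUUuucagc
miR-128-3p: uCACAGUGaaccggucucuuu

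Before the channel genes, 2 features of the arrays bear on all values. Over 12 measured of 13 listed oligodendrocyte markers, the mean centred log2 value was 1.59 on control replicate 3 of repeat 1 and 1.43 on control replicate 1 of repeat 2, against -0.39 to 0.47 on the other 14 arrays. The mean of 4 of 7 microglial markers was 0.78 and 0.87 on these 2 arrays and -0.22 to 0.26 on the others. On the same 2 arrays the astrocyte marker mean was 0.54 and 0.36, against at most 0.33 elsewhere, and the D2 neuron marker mean 0.46 and 0.41, against at most 0.28. The D1 neuron markers, 7 measured of 8, were lowest on these 2 arrays, at -0.19 and -0.28. Their means were -0.016 to 0.22 on the deletion arrays and -0.28 to 0.064 on the control arrays. The mean of 4 of 7 vascular markers was -0.20 to 0.022 on the deletion arrays and -0.022 to 0.17 on the control arrays. It was 0.17 and 0.11 on the 2 control arrays, against at most 0.14 elsewhere, so this difference was not confined to them. The 3′ minus 5′ difference of the array's degradation control probe sets was 0.40 and 1.82 on the 2 control arrays, against at most 1.17 elsewhere. Of the 132 members, 18 (13.6%) were highest on 1 of these 2 arrays, as were 13.5% of all probe sets. The members with an unadjusted p under 0.05 are also given without them. What part these markers play in the differences was not tested.

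No potassium channel probe set passed the test of deletion against control. Limma, fitted across all 37112 probe sets with genotype and experimental repeat as terms and adjusted by the Benjamini-Hochberg method, called 0 of the 132 members at an adjusted p under 0.05, the smallest being 0.397. In the whole table the same rule called 11 probe sets higher (0.0296%) and 1 lower (0.00269%). At an unadjusted p under 0.05, 8 members of 6 genes were higher in the deletion mice (6.06% of the members, against 3.71% of all probe sets). At the same threshold 2 members were lower (1.52%, against 3.13%). With each array's median subtracted, this split was 8 higher (6.06%, against 3.60% of all probe sets) and 4 lower (3.03%, against 3.02%). The differences, fitted as deletion minus control on the log2 scale, ranged from -0.42 to 0.90.

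The members as a group lay close to 0. Their median difference was 0.0027, against -0.0034 for all probe sets, and 70 of 132 (53.0%) were positive, against 41.4% of all. Of the 132 members, 38 had a residual SD, the spread left after genotype and repeat were fitted, under 0.075. The other 94 (71.2%, against 64.5% of all probe sets) had at least that spread. Among the 94 members above that spread 58 were positive (61.7%, against 50.1% of all probe sets above it), with a median of 0.026 against 0.00025. Within repeats the members' median was 0.010 in repeat 1 and -0.0086 in repeat 2, and 63 members (47.7%, against 43.3% of all) had the same sign in both. No member separated the genotypes in both repeats, while 0.0835% of all probe sets did so with deletion above control and 0.0431% with deletion below. Separation in 1 repeat alone is described below for single probe sets. No share of all probe sets is given for it, so it is not read as a result about the members.

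**Figure D1:**
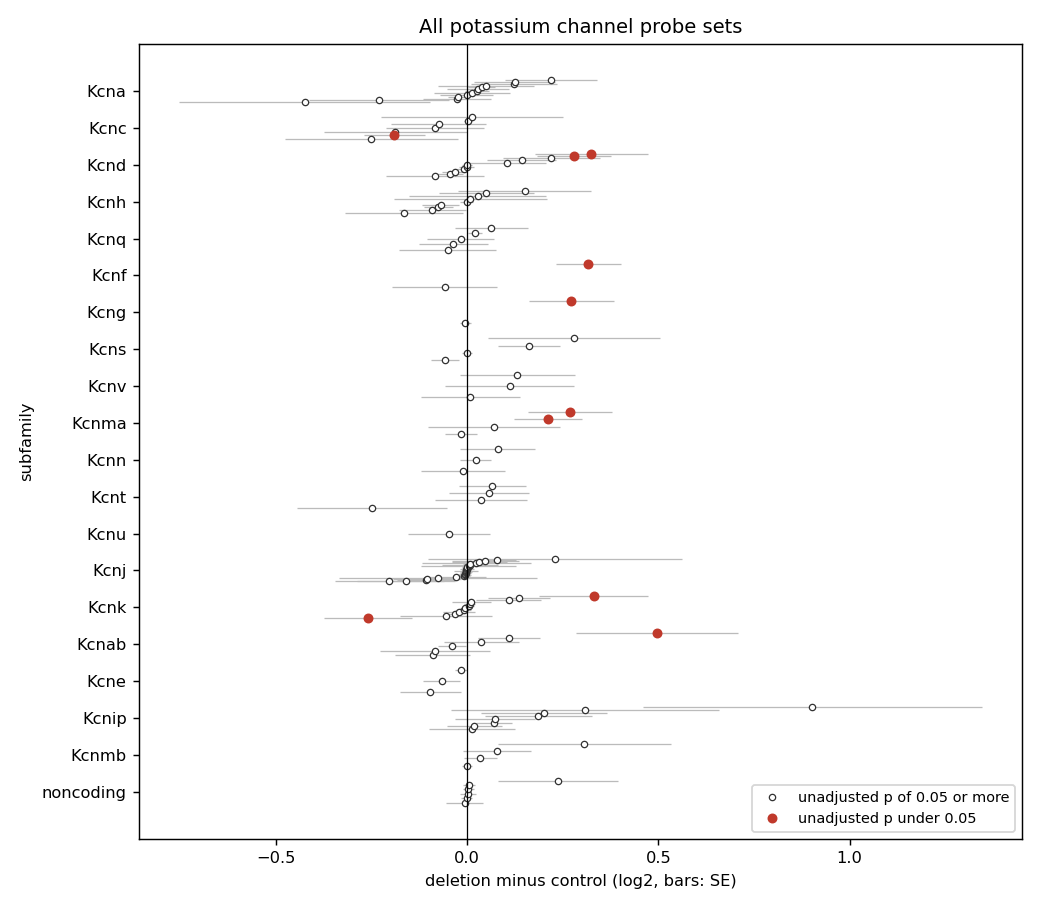
Difference of deletion from control on the log2 scale for each of the 132 potassium channel probe sets (points, with the SE of the fit as bars), by gene symbol subfamily. Red points are the 10 with an unadjusted limma p under 0.05, 8 to the right of 0 and 2 to the left, and the subfamilies Kcnj and Kcnk have many points on 0.

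The silent Kv subunits held the member with the smallest p. These subunits form no channel alone and modify other Kv subunits when they assemble with them. Kcnf1 (Kv5.1) gave centred log2 values, by its probe set 1454768_at, of 0.24, 0.23, 0.44 and 0.15 in the deletion mice of repeat 1 and -0.079, -0.38, 0.26 and 0.18 in their controls. In repeat 2 the values were -0.0016, 0.23, -0.057, 0.0016 and -0.067 in the deletion mice and -0.28, -0.48 and -0.27 in the controls. The groups overlapped in repeat 1, where controls 3 and 4 reached the deletion values, and did not overlap in repeat 2. The fitted difference was 0.32 ± 0.085 (SE; limma adjusted p = 0.397), and 9 of 9 deletion arrays exceeded the mean of the controls of their own repeat. Permuting the genotype within repeats in every possible way gave an exact two-sided permutation p of 0.00179, where the smallest possible is 0.00051 and no adjustment over probe sets is made. Without the 2 control arrays high in oligodendrocyte markers the difference was 0.38 ± 0.087. The second Kcnf1 probe set, 1441300_at, differed by -0.059 ± 0.14 in the other direction, with an adjusted limma p of 0.9999. Without the 2 control arrays it differed by 0.064 ± 0.14, in the same direction as the first.

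Kcng1 (Kv6.1), by 1457052_at, ranged from -0.073 to 0.69 around a median of 0.077 in the deletion mice, and from -0.35 to 0.19 around -0.18 in the controls. Its difference was 0.44 in repeat 1, where deletion replicate 4 stood highest at 0.69, and 0.099 in repeat 2. Over both repeats it was 0.27 ± 0.11 (limma adjusted p = 0.652, exact permutation p = 0.0232), and 0.27 ± 0.13 without the 2 control arrays. Its second probe set varied with an SD of only 0.020. The other silent subunits did not reach an unadjusted p under 0.05. Kcns2 (Kv9.2) differed by 0.16 ± 0.081 and 0.28 ± 0.23 by its 2 probe sets. By 1457325_at its groups barely cleared each other in repeat 1, with the lowest deletion value at -0.018 and the highest control at -0.020. The 3 Kcnv1 (Kv8.1) probe sets differed by 0.0085 to 0.13. In all, 7 of 11 silent subunit probe sets were positive, with a median of 0.11, and 6 of 11 were so without the 2 control arrays.

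The Kv4 channels, pores of the dendritic A-type current, gave differences of both signs in the same gene. Kcnd2 (Kv4.2) had 4 probe sets. By 1422835_at the deletion mice of repeat 1 gave 0.12, 0.067, 0.014 and -0.095 and their controls -0.014, -0.31, -0.67 and -0.11. In repeat 2 the deletion mice gave 0.29, 0.30, 0.32, 0.042 and -0.090 and the controls -0.27, -0.11 and 0.14. Control replicate 3 of repeat 1, 1 of the 2 arrays high in oligodendrocyte markers, was the lowest of all, and the groups overlapped in both repeats. The difference was 0.28 ± 0.097, with 8 of 9 deletion arrays above their repeat's control mean (limma adjusted p = 0.557, exact permutation p = 0.0143). Without the 2 control arrays it was 0.16 ± 0.080, with an unadjusted p above 0.05.

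A second Kcnd2 probe set, 1450773_at, differed by 0.32 ± 0.15 (limma adjusted p = 0.712, exact permutation p = 0.0556) and by 0.33 ± 0.17 without the 2 control arrays. The remaining ones, 1422834_at and 1447764_at, differed by -0.084 ± 0.13 and -0.0091 ± 0.018. Without the 2 control arrays 1422834_at turned to 0.091 ± 0.10, and 1447764_at stayed at -0.011 ± 0.021. Kcnd1 (Kv4.1) and Kcnd3 (Kv4.3) each had 1 probe set that reached an unadjusted p under 0.05 without the 2 control arrays and not with them. Kcnd1 by 1446556_at went from 0.22 to 0.31 and Kcnd3 by 1435720_at from 0.14 to 0.26 (limma adjusted p = 1 for the latter). Over the 3 Kcnd genes, 5 of 11 probe sets were positive.

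The Kcnip genes encode the KChIP proteins, calcium-binding partners that raise Kv4 surface expression. All 8 of their probe sets were positive, with a median of 0.13 and none at an unadjusted p under 0.05, and 6 of 8 were positive without the 2 control arrays, with a median of 0.061. Kcnip2 by 1425870_a_at had the largest difference of any member, 0.90 ± 0.44, beside widely spread controls. The controls gave 0.037, 0.61, -1.90 and -0.19 in repeat 1 and -2.57, -1.67 and 0.36 in repeat 2, so 3 of 7 lay below -1.5 and the other 4 between -0.19 and 0.61. The deletion mice gave -0.14, 0.17, 0.13 and -0.037 in repeat 1 and 0.81, -0.57, 0.66, 0.34 and -0.48 in repeat 2, overlapping the 4 higher controls. Of the 3 low arrays, 2 are those high in oligodendrocyte markers, and without them the difference was 0.30 ± 0.35. With all arrays the exact permutation p was 0.0707 and the limma adjusted p 0.763. The second Kcnip2 probe set differed by 0.073 ± 0.10. Dpp10, a membrane partner of Kv4 outside the Kcn symbols, differed by 0.31 ± 0.13 and 0.033 ± 0.059 by its 2 probe sets, and Dpp6 by 0.086 ± 0.15 and -0.068 ± 0.11.

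**Figure D2:**
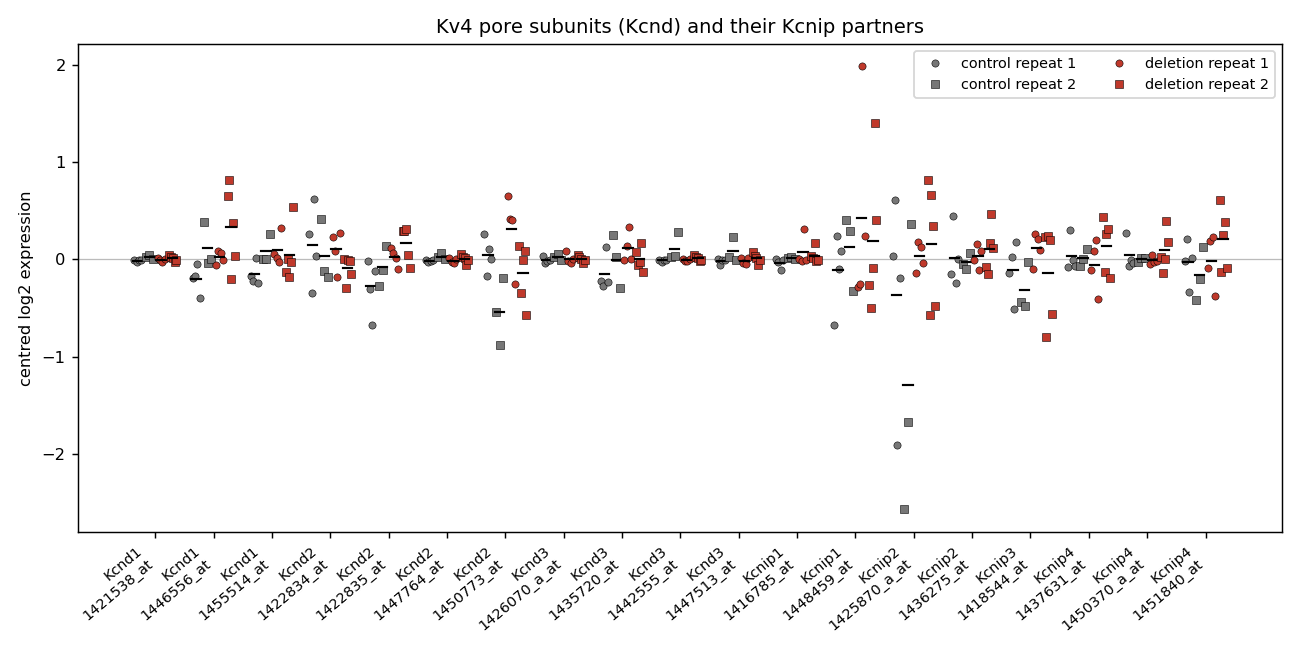
Centred log2 value of every array for the 11 Kcnd and 8 Kcnip probe sets, with controls in grey, deletion in red, circles for repeat 1, squares for repeat 2 and lines at the mean of each group and repeat. The lowest points, those of Kcnip2 1425870_a_at at -1.90, -2.57 and -1.67, are all controls, and deletion and control points are mixed for most probe sets.

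Among the other voltage-gated pores the values ran in both directions. The delayed rectifier Kcnc1 (Kv3.1), known for fast-spiking interneurons, was 1 of the 2 lower members. By 1456944_at the deletion mice gave -0.015, -0.061, -0.014 and 0.014 in repeat 1 and -0.19, 0.15, 0.091, -0.33 and -0.058 in repeat 2, and the controls gave -0.12, 0.10, 0.35 and -0.014 in repeat 1, then 0.16, 0.36 and 0.15 in repeat 2. No deletion array exceeded its repeat's control mean, though the groups overlapped. The difference was -0.19 ± 0.080 (limma adjusted p = 0.668, exact permutation p = 0.038), and -0.15 ± 0.087 without the 2 control arrays. The other 3 Kcnc1 probe sets differed by -0.19 to 0.0017, the lowest of them, 1443855_at, by 0.028 without these arrays. The mean of 6 striatal interneuron markers ran from -0.60 to 0.52 on the deletion arrays and from -0.33 to 0.42 on the control arrays. It was 0.41 and 0.42 on the 2 control arrays high in oligodendrocyte markers, and its relation to Kcnc1 was not tested.

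The Kv1 genes (Kcna), low-threshold channels of the axon and of delayed firing, had 8 of 13 probe sets positive and none at an unadjusted p under 0.05. Kcna4 (Kv1.4), an A-type Kv1 channel, had the smallest p of the subfamily, at 0.22 ± 0.12 (limma adjusted p = 0.813, exact permutation p = 0.103). The 3 probe sets of Kcna2 (Kv1.2) differed by 0.025 ± 0.031, -0.23 ± 0.18 and 0.012 ± 0.099, and the second of these by -0.0076 without the 2 control arrays. The largest negative difference of all members, -0.42 ± 0.33 for Kcna6 (Kv1.6) by 1441049_at, came with an SD of 0.67, and the second Kcna6 probe set differed by 0.12 ± 0.11. For Kcnq3, a subunit of the M-current, the 2 probe sets differed by -0.036 ± 0.090 and -0.051 ± 0.13, with 95% intervals of -0.23 to 0.16 and -0.32 to 0.22. The ether-a-go-go related genes (Kcnh) had 4 of 9 probe sets positive, and Kcnh3 1421619_at, with an unadjusted limma p above 0.05, differed by -0.075 ± 0.038 (limma adjusted p = 0.778, exact permutation p = 0.0372).

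The BK channel had 2 of its 4 probe sets at an unadjusted p under 0.05. Kcnma1 encodes its pore, which opens on depolarisation and calcium and shortens the spike. By 1428948_at the deletion mice of repeat 1 gave 0.44, 0.23, 0.25 and 0.29, all above their controls at 0.15, -0.58, 0.13 and -0.070. In repeat 2 the deletion values of 0.070, 0.18, -0.22, -0.38 and -0.19 overlapped the control values of -0.27, -0.31 and -0.16. The difference was 0.27 ± 0.11, with 8 of 9 deletion arrays above their repeat's control mean (limma adjusted p = 0.662, exact permutation p = 0.024). By 1425987_a_at it was 0.21 ± 0.088 (limma adjusted p = 0.668, exact permutation p = 0.0403), again in 8 of 9 arrays. Both probe sets kept an unadjusted p under 0.05 without the 2 control arrays, at 0.31 ± 0.13 and 0.25 ± 0.095. The other Kcnma1 probe sets differed by 0.070 ± 0.17 and -0.017 ± 0.041.

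The BK beta subunits, which tune calcium sensitivity and inactivation, did not reach that threshold. Kcnmb4, the neuronal beta subunit, differed by 0.078 ± 0.089 and Kcnmb2 by 0.31 ± 0.23 and 0.034 ± 0.043. For Kcnn2, an SK channel of the afterhyperpolarisation, the difference was 0.079 ± 0.098. Of Kcnt1, the sodium-activated Slack channel, the 3 probe sets differed by 0.057, 0.036 and 0.066. Across the calcium- and sodium-activated pores and their relatives 8 of 12 probe sets were positive, with a median of 0.046.

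The inward rectifiers (Kcnj) had 0 of 25 probe sets at an unadjusted p under 0.05 in either direction. Of these 10 were positive, with a median of -0.0024. A residual SD under 0.075 was found for 12 of the 25. The rest, 52% of the 25 against 64.5% of all probe sets, had at least that spread. For Kcnj2 (Kir2.1) the difference was -0.0029 ± 0.030, with a 95% interval of -0.068 to 0.062, and values ran from -0.11 to 0.082 in the deletion mice and from -0.11 to 0.10 in the controls. Such narrow values cannot be told here from a probe set near the detection floor. Kcnj4 (Kir2.3), which is enriched in forebrain, differed by 0.0035 ± 0.12, with -0.21 in repeat 1 and 0.23 in repeat 2. Of the G protein-gated subunits, Kcnj6 (Kir3.2) differed by -0.0097 and 2.5e-05, and the 4 probe sets of Kcnj3 (Kir3.1) ranged from -0.20 to 0.23.

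Kcnj10 (Kir4.1) is an inward rectifier of glia, and its relation to the glial markers was not tested. It was at 1.41 and 0.78 on the 2 control arrays high in oligodendrocyte markers, against -0.71 to 0.79 in the deletion mice and at most -0.0067 in the other controls. Its difference was -0.077 ± 0.26 with all arrays and 0.31 ± 0.16 without these 2 (limma adjusted p = 1).

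The 2-pore leak channels (Kcnk), open at rest, had 1 member higher and 1 lower at an unadjusted p under 0.05. Kcnk1 (TWIK-1) by 1455896_a_at gave 0.17, 0.62, 0.045 and 0.20 in the deletion mice of repeat 1 and 0.097, -0.29, -0.21 and 0.16 in their controls. In repeat 2 it gave -0.045, -0.53, 0.57, 0.074 and -0.15 in the deletion mice and -0.54, -0.48 and -0.050 in the controls, and the groups overlapped in both repeats. The difference was 0.33 ± 0.14 (limma adjusted p = 0.686, exact permutation p = 0.0426), with 0.32 in repeat 1, 0.34 in repeat 2, and 0.26 ± 0.16 without the 2 control arrays. The second Kcnk1 probe set, 1448690_at, differed by 0.14 ± 0.081.

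Kcnk6 (TWIK-2), a relative of Kcnk1, had the most negative difference of the leak channels. Its 1 probe set ranged from -0.64 to 0.15 around -0.023 in the deletion mice and from -0.046 to 0.69 around 0.020 in the controls. Deletion replicate 4 of repeat 2, at -0.64, lay apart at the low end and control replicate 2 of repeat 1 at the high end. The difference was -0.26 ± 0.12 (limma adjusted p = 0.701, exact permutation p = 0.0482), with 2 of 9 deletion arrays above their repeat's control mean, and -0.28 ± 0.14 without the 2 control arrays. Kcnk2 (TREK-1), a leak channel opened by stretch and lipids, differed by 0.11 ± 0.085, and by -0.0049 without these arrays.

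Of the auxiliary subunits outside the Kv4 and BK channels, Kcnab1, the Kvβ1 subunit that speeds Kv1 inactivation, had the widest difference. By 1454043_a_at the deletion mice gave -0.067, 0.019, 0.066 and -0.56 in repeat 1 and 0.76, 0.24, 0.62, 0.40 and -0.019 in repeat 2, and the controls -0.29, 0.23, -1.11 and -0.31 in repeat 1, then -0.83, -0.55 and 0.25 in repeat 2. The lowest values, -1.11 and -0.83, were those of the 2 control arrays high in oligodendrocyte markers, and the groups overlapped in both repeats. The difference was 0.50 ± 0.21 (limma adjusted p = 0.686, exact permutation p = 0.0441), and without these arrays it was 0.24 ± 0.19, with an unadjusted p above 0.05. The second Kcnab1 probe set differed by 0.11 ± 0.082. The 4 probe sets of Kcnab2 and Kcnab3, the other Kvβ genes, differed by -0.091 to 0.036. The 3 Kcne genes, small single-pass subunits, each had 1 probe set, all negative, from -0.096 to -0.016.

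**Figure D3:**
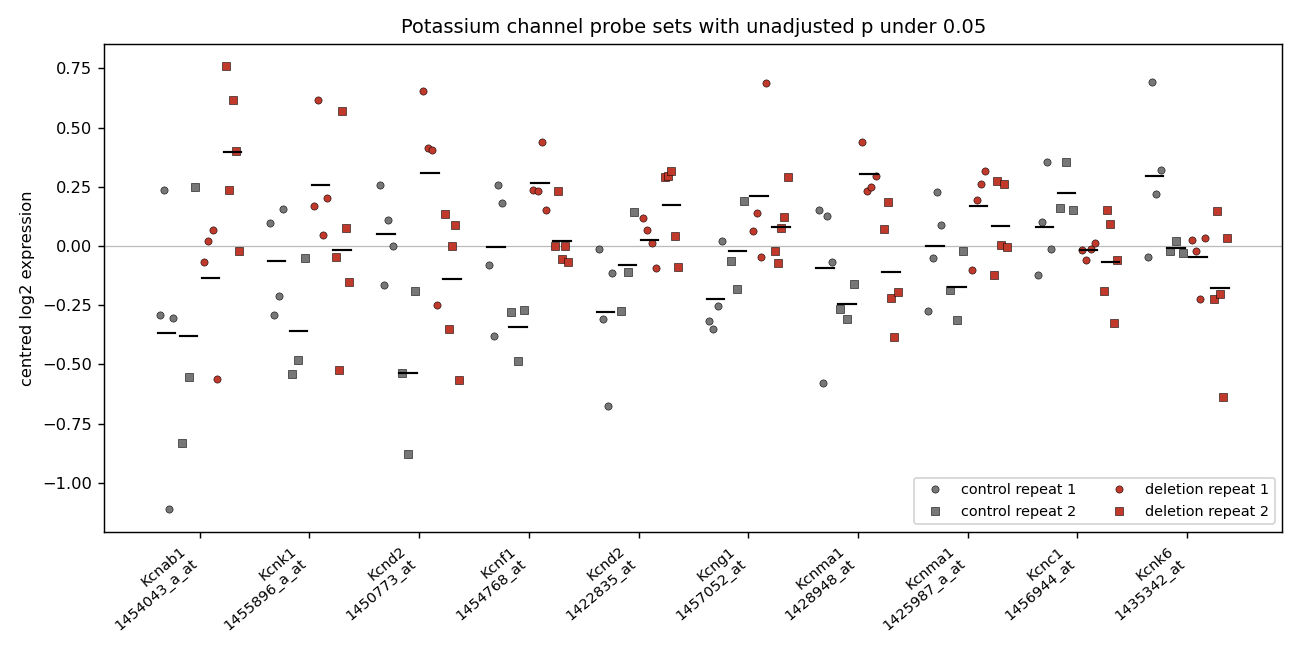
Centred log2 value of every array for the 10 potassium channel probe sets with an unadjusted limma p under 0.05, with controls in grey, deletion in red, circles for repeat 1, squares for repeat 2 and lines at the mean of each group and repeat. The genotypes separate in repeat 2 for Kcnf1 and in repeat 1 for Kcnma1 1428948_at, and overlap in the other repeat of each.

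None of the 6 noncoding probe sets reached an unadjusted p under 0.05. Of Kcnq1ot1, the long RNA read antisense within the imprinted Kcnq1 locus, the 4 probe sets differed by -0.0065 to 0.0054. Kcnmb4os2, a transcript from the strand opposite Kcnmb4, differed by 0.24 ± 0.16 with an adjusted limma p of 0.895.

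Averaging all probe sets of a gene gave no call either. Limma on the 71 gene means called 0 genes (smallest adjusted p = 0.515, over 16206 genes), where 0.0617% of all genes were called. Under an unadjusted p of 0.05 lay 4 genes that were higher (5.63%, against 4.97% of all genes) and 1 that was lower (1.41%, against 3.71%). The higher ones were Kcnab1 at 0.30 ± 0.14, Kcnk1 at 0.23 ± 0.096, Kcng1 at 0.13 ± 0.056 and Kcnma1 at 0.13 ± 0.057, and the lower one was Kcnk6 at -0.26 ± 0.11. Kcnf1 and Kcnd2 were not among them, with gene means of 0.13 ± 0.087 and 0.13 ± 0.060. Their probe sets disagreed in sign with all arrays, as did those of Kcng1 and Kcnma1. Positive gene means numbered 36 of 71 (50.7%, against 45.3% of all genes), and 20 of the 39 genes with several probe sets had both signs among them.

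Leaving out the 2 control arrays high in oligodendrocyte markers changed which members passed the unadjusted threshold. There were then 5 higher (3.79%, against 1.85% of all probe sets) and 0 lower (against 1.79%), and limma again called none at an adjusted p under 0.05. The 5 were Kcnf1 1454768_at, both Kcnma1 probe sets, Kcnd3 1435720_at and Kcnd1 1446556_at.

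**Figure D4:**
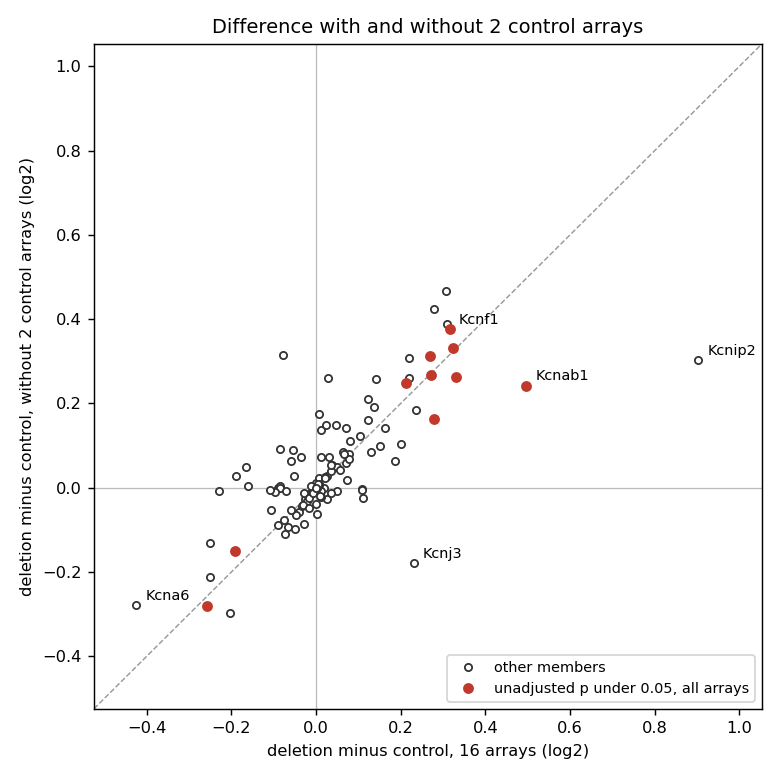
Difference of deletion from control on the log2 scale with all 16 arrays (horizontal) and without the 2 control arrays high in oligodendrocyte markers (vertical) for the 132 members, with the diagonal of equal values dashed. Kcnip2 lies at 0.90 with all arrays and 0.30 without the 2, Kcnab1 at 0.50 and 0.24, and Kcnf1 near the diagonal at 0.32 and 0.38.

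The 2 experimental repeats each held both genotypes and so allowed a test of whether the differences were unequal. Limma called 0 members for the interaction of genotype and repeat, as it called 0% of all probe sets, and 4 members (3.03%, against 3.85%) had an unadjusted p under 0.05. These were Kcna1 1437230_at, Kcnj3 1444025_at, Kcnh3 1421619_at and Kcnh5 1441742_at. Kcnj3 differed by -0.52 in repeat 1 and by 1.03 in repeat 2, where control replicate 1, high in oligodendrocyte markers, stood at -2.44 (limma interaction, adjusted p = 0.886). Kcna1 (Kv1.1) differed by -0.24 and 0.35 (limma interaction, adjusted p = 0.886).

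**Figure D5:**
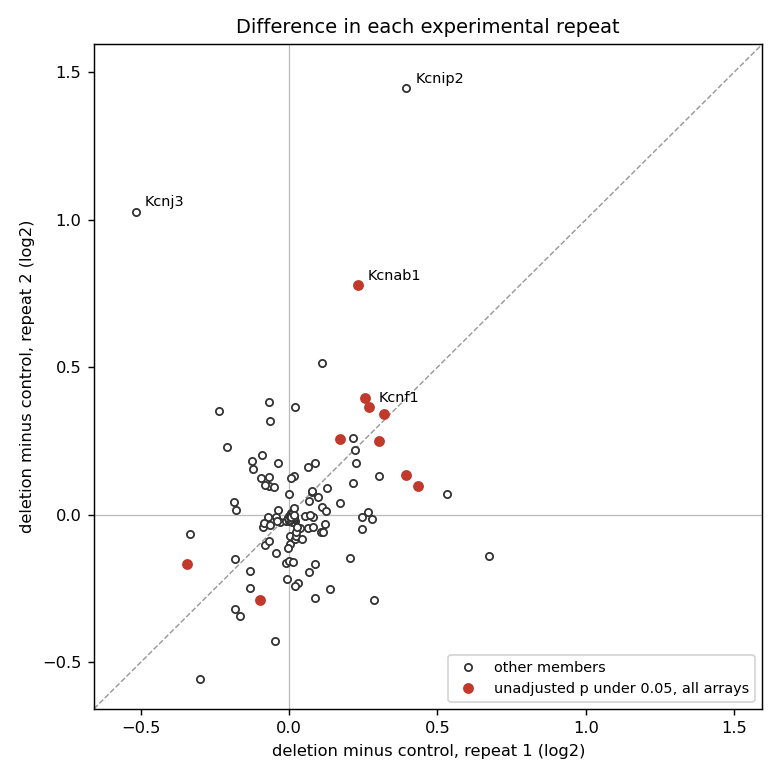
Difference of deletion from control on the log2 scale in repeat 1 (horizontal) and in repeat 2 (vertical) for the 132 members, with the diagonal of equal values dashed. The 10 red points, those with an unadjusted limma p under 0.05 over all arrays, have the same sign in both repeats. Their choice by p on these same arrays favours that. Kcnj3 1444025_at stands at -0.52 and 1.03.

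Between the repeats themselves, whatever the genotype, some members differed, as did a part of all probe sets. With the same limma fit, 6 members were higher in repeat 2 (4.55%, against 6.35% of all probe sets) and 12 were lower (9.09%, against 5.53%) at an adjusted p under 0.05. Kcnk2 lay between 0.048 and 0.54 on the 8 arrays of repeat 1 and between -0.62 and -0.048 on the 8 of repeat 2, with no overlap and a difference of -0.66 ± 0.085 (limma adjusted p = 0.000246). Lower in repeat 2 by the fit were also Kcnh1 1435994_at (-1.05 ± 0.20), Kcnq5 1457587_at (-0.66 ± 0.086) and Kcnt1 1458428_at (-0.54 ± 0.088). Kcnj11 1455417_at, the Kir6.2 pore of ATP-sensitive channels, was higher in repeat 2 by 0.62 ± 0.072, and Kcnt2 1459971_at by 0.68 ± 0.19. Probe sets of 1 gene again went apart: those of Kcna4 gave -0.46 and 0.40, and 2 of Kcna1 gave -0.23 and 0.31. The third of Kcna1, which was not called, gave -0.37 (limma adjusted p = 0.0725). Kcnf1 1454768_at, which had the smallest p for genotype, was also lower in repeat 2, at -0.28 ± 0.084 (limma adjusted p = 0.0411). What differed between the repeats besides their name is not given in the sources used here.

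The authors also deposited a p-value per probe set. Among the p-values of the authors' deposited table, 8 of the 132 members (6.06%, against 6.16% of all probe sets) had a p under 0.05, and by the fitted difference 6 of these lay above 0 and 2 below.

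Partner proteins that anchor or regulate these channels were taken from a list of 38 genes, of which 32 were measured by 93 probe sets. None was called by limma (smallest adjusted p = 0.62). Of the 93 differences 39 were positive, with a median of -0.0052, against 41.4% of all probe sets and a median of -0.0034. At an unadjusted p under 0.05, 5 partner probe sets were higher (5.38%, against 3.71% of all) and 0 lower (against 3.13%).

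In each of these genes the other probe sets did not reach that threshold. Dpp10 by 1 of its 2 probe sets, described above, differed by 0.24 ± 0.15 without the 2 control arrays. Amigo1, an adhesion protein that binds Kv channels, differed by 0.19 ± 0.073 by 1 probe set and by -0.29 to 0.011 by its other 4. The Kv1 anchoring protein Cntnap2 differed by 0.21 ± 0.081, with -0.27 ± 0.17 and 0.048 ± 0.031 by its other 2 probe sets. The secreted Kv1-linked protein Lgi1 differed by 0.23 ± 0.11 and 0.13 ± 0.18. The KCNQ anchor Akap5 differed by 0.88 ± 0.39 by 1 probe set and by 0.068 and 0.067 by the others. Without the 2 control arrays the leading probe set gave 0.33 ± 0.29 for Akap5, 0.16 ± 0.085 for Amigo1 and 0.15 ± 0.12 for Lgi1. For Cntnap2 it gave 0.22 ± 0.081, the only one of the 5 with an unadjusted p under 0.05 in that fit.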

How the data were processed

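The arrays measured RNA bound to tagged D1 neuron polysomes, on 9 deletion and 7 control arrays. Precision is limited by the number of arrays. GCOS 1.4 and GCRMA are named in the submitters' processing notes, with no role stated. Values were deposited as log2 expression. The authors centred them, since every probe set's median over the 16 arrays was 0 to within 5e-07. The authors also deposited a p-value per probe set, that of a genotype term per the file headers. An ordinary linear model with genotype, repeat and their interaction gave these p-values to within 2e-05. The 16 columns of array values beside them were not used.

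The 62 control probe sets were left out, leaving 37112. The platform annotation named 1 gene for 29680, several for 819 and none for 6613. Symbols were matched to the RefSeq table of GRCm38.p6, in which all 132 members were found. No build is named by the files, so no gene coordinates are given. No filter on dim probe sets was possible. Differences were fitted in R 4.3.3 by two-sided tests of limma 3.58.1 (functions lmFit, eBayes). The model held genotype and the repeat, and p-values were adjusted by the Benjamini-Hochberg method over all 37112 probe sets. For single probe sets, all 3920 regroupings of genotype within the repeats were enumerated. The procedure was tested on simulated data. Gene means, single repeats, other scalings, other variance models, other terms and each array left out in turn were tried as alternatives.

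The members, gene lists and tests were chosen with earlier results of these data known. Named probe sets were those with an unadjusted p under 0.05 and the same sign in both repeats (at most 12 each way), the other probe sets of their genes, the smallest p of each subfamily, and 11 channels known from striatal projection neurons. Others are named after their values were seen, as extremes or as differing between repeats. With the mean of each genotype in each repeat removed, same-numbered deletion and control arrays had correlations of -0.27 to 0.39 over 7 pairs. The numbers were therefore not taken to pair mice. Binding sites for miR-128 in transcripts were not analysed here.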

Additional observations from a re-analysis of the deposited data

Results flagged for a closer look

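In 10 of the 104 combinations of a named probe set and a genotype, 1 array lay far from the rest of its group. The nominal rate of the rule is about 5%, and whether that rate holds for these values was not tested. No share of all probe sets is given, so the count is not read as a result about the members. In the deletion mice the isolated values were 0.22 for Kcna2 1422197_at (repeat 1 replicate 1, next value 0.034), -0.64 for Kcnk6 1435342_at (repeat 2 replicate 4, next -0.23) and 0.13 for Kcnq1 1449464_at (repeat 2 replicate 3, next 0.039). Replicate 4 of repeat 1 was isolated at 0.87 for Kcnt1 1441511_at, where the next value was 0.014, and at 0.69 for Kcng1 1457052_at, where it was 0.29. In the controls they were 0.34 for Kcne3 1418499_a_at (repeat 1 replicate 2, next 0.13), 0.32 for Kcnh3 1421619_at (repeat 2 replicate 2, next 0.13) and 0.31 for Kcns2 1457325_at (repeat 2 replicate 3, next -0.020). Kcnj3 1421468_at had 1 isolated control at 0.24 (repeat 1 replicate 3, next 0.060) and Kcnj4 1451808_at 1 at 0.76 (repeat 1 replicate 2, next 0.24).

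Kcnj4 1451808_at drew attention a second time. All deletion arrays of repeat 2 exceeded the mean of their controls, and all of repeat 1 were below the mean of theirs. That repeat 1 mean includes the isolated control, so this flag is not separate from the first. The repeat 1 controls were -0.10, 0.76, -0.10 and 0.24, and the deletion values 0.065, 0.14, -0.12 and -0.14. The difference of repeat 2 minus that of repeat 1 was 0.44 (limma adjusted p = 0.886).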

How the results depend on the processing

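In each of the 28 alternatives fitted to probe sets, and in the fit to gene means, limma called 0 of the members between genotypes (smallest adjusted p over the probe set alternatives, 0.289 to 0.970). The members at an unadjusted p under 0.05, 8 higher and 2 lower, depended on single arrays. With 1 array left out they were 3 to 10 higher and 0 to 3 lower, while the share of all probe sets moved too, from 2.31% to 4.91% higher and from 2.15% to 4.24% lower. Without control replicate 2 of repeat 2 they were 3 and 0, and without deletion replicate 4 of repeat 2, 4 and 1. There were 5 higher without deletion replicate 2 or 3 of repeat 1, control replicate 1 of repeat 2 or control replicate 3 of repeat 1, and 0 lower without the last of these or deletion replicate 1 of repeat 2. Without both control arrays high in oligodendrocyte markers there were 5 higher and 0 lower. Repeat 1 alone gave 6 higher (4.55%, against 2.29% of all) and 1 lower (0.758%, against 2.18%). Repeat 2 alone gave 3 higher (2.27%, against 3.01%) and 4 lower (3.03%, against 3.37%). Subtracted array medians gave 8 higher (6.06%, against 3.6% of all) and 4 lower (3.03%, against 3.02%). Quantile normalization gave 6 higher (4.55%, against 3.44%) and 1 lower (0.758%, against 3.11%). Array weights gave 9 higher (6.82%, against 4.64%) and 1 lower (0.758%, against 4.49%). The oligodendrocyte marker mean as a term gave 8 higher (6.06%, against 2.57%) and 0 lower (against 2.39%). Gene means gave 4 higher and 1 lower. The cause of these shifts was not tested. The median difference was 0.026 among members of residual SD of at least 0.075.

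The replicate block, with same-numbered mice paired, gave 8 higher (6.06%, against 3.32% of all) and 0 lower (against 3.2%). It gave 0 called and a median difference of 0.012. The members that differed between repeats, 18 in all, numbered 11 to 16 with 1 array left out, and 11 without deletion replicate 5 of repeat 2, deletion replicate 3 of repeat 1 or control replicate 1 of repeat 2. The 10 members at an unadjusted p under 0.05 kept their sign in all 28 alternatives. They were chosen for a small p on these same arrays, so a kept sign was favoured in advance and is no independent support. Of the 52 named probe sets, many of which differed by values near 0, 25 changed sign in at least 1 alternative. Kcnf1 1454768_at and Kcnd2 1422835_at had an unadjusted p under 0.05 in all 16 fits with 1 array left out, Kcnma1 1428948_at in 15, Kcnc1 and Kcng1 in 13, Kcnk1 in 10, Kcnma1 1425987_a_at in 9, Kcnab1 in 8 and Kcnd2 1450773_at and Kcnk6 in 5 each.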

Other observations

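The 2 transcripts that host the miR-128 loci were also on the arrays. Arpp21, whose gene holds miR-128-2, had 5 probe sets. Of these 1 differed by 0.39 ± 0.064 (limma adjusted p = 0.0620) and the other 4 by 0.0010 to 0.098. R3hdm1, the host of miR-128-1, had 3, which differed by -0.38 ± 0.18, -0.076 ± 0.071 and -0.0062 ± 0.023, each with an adjusted limma p of 0.756 or more.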
